A study of Mus musculus with 15 samples.

Results

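The transcripts described here are 8 mRNAs that are best known from neurons of the brainstem, measured in RNA sequencing libraries of mouse cerebellum. They are Slc6a2, Dbh, Th, Slc5a7, Glra1, Glra2, Slc17a6 and Tph2, chosen by symbol, and they are 8 of the 24421 genes in each count table. Their levels in these libraries were known when they were chosen, so their values are given as a description, without a test. The 15 libraries came from cerebella of FVB mice of 3 genotypes, 5 libraries each. ATXN1[82Q] mice carry human ATXN1 with a tract of 82 glutamines, the kind of expansion that causes spinocerebellar ataxia type 1. ATXN1[82Q]V591A;S602D mice carry this tract together with 2 substitutions in the protein, known to weaken its binding to the repressor CIC. They are called substituted-transgene mice from here on. Wild-type (WT) FVB mice carry no transgene. Both transgenes are driven by the Pcp2 promoter, which drives expression in Purkinje cells of the cerebellar cortex. The labels give neither the age nor whether libraries of a genotype came from different animals, so errors and p-values measure only the spread between these libraries.

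The brainstem lies directly under the cerebellum and holds compact groups of neurons, each marked by the enzymes and transporters of its own transmitter. Noradrenergic neurons of the locus coeruleus, beside the fourth ventricle, need tyrosine hydroxylase (Th) and dopamine beta-hydroxylase (Dbh) to make noradrenaline and the transporter Slc6a2 to take it back up. Serotonergic neurons of the raphe need tryptophan hydroxylase 2 (Tph2). Cholinergic neurons take up choline through Slc5a7. Glra1 and Glra2 encode subunits of the glycine receptor, the main inhibitory receptor of the brainstem and spinal cord, and Slc17a6 encodes the vesicular glutamate transporter VGLUT2. Of these, Slc17a6 is also made by neurons of the deep cerebellar nuclei, Th mRNA is also made by a subset of mouse Purkinje cells, and glycine receptors are also used inside the cerebellum.

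Depth on genes ran from 36467948 to 42818401 counts per library in ATXN1[82Q], from 38468429 to 41480492 with the substituted transgene and from 38067915 to 40640811 in WT. Levels are in CPM, the reads of a gene relative to all reads on genes of its library, scaled by the TMM method. The tissue carried Purkinje cell markers in every library. The summed level of 10 such markers was 3492 to 4118 CPM in ATXN1[82Q], 6307 to 8584 CPM with the substituted transgene and 8918 to 10068 CPM in WT. These are libraries of whole tissue, in which fewer cells of a type and less RNA per cell cannot be told apart.

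The main feature of the 8 transcripts was that a pair of the 15 libraries stood apart from the rest. ATXN1[82Q] replicates 5 and 2 were the 2 highest of 15 for Slc6a2, Dbh, Glra1, Glra2 and Slc17a6, 5 of the 8. Over all tested genes that pair was highest for 4.46%. These 2 libraries held 82% of all Slc6a2 reads in the study, 69% of Dbh reads and 61.1% of Glra1 reads. They held 32.7% of Slc5a7 reads, 26.1% of Slc17a6 reads, 23.3% of Glra2 reads, 21% of Th reads and 17.3% of Tph2 reads. The other 3 ATXN1[82Q] libraries lay among the substituted-transgene and WT libraries for Slc6a2, Dbh and Glra1. With the substituted transgene, replicate 4 was the highest of its 5 libraries for Slc6a2, Dbh, Slc5a7, Glra1 and Glra2, again 5 of 8, against 21.1% of all tested genes.

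**Figure D1:**
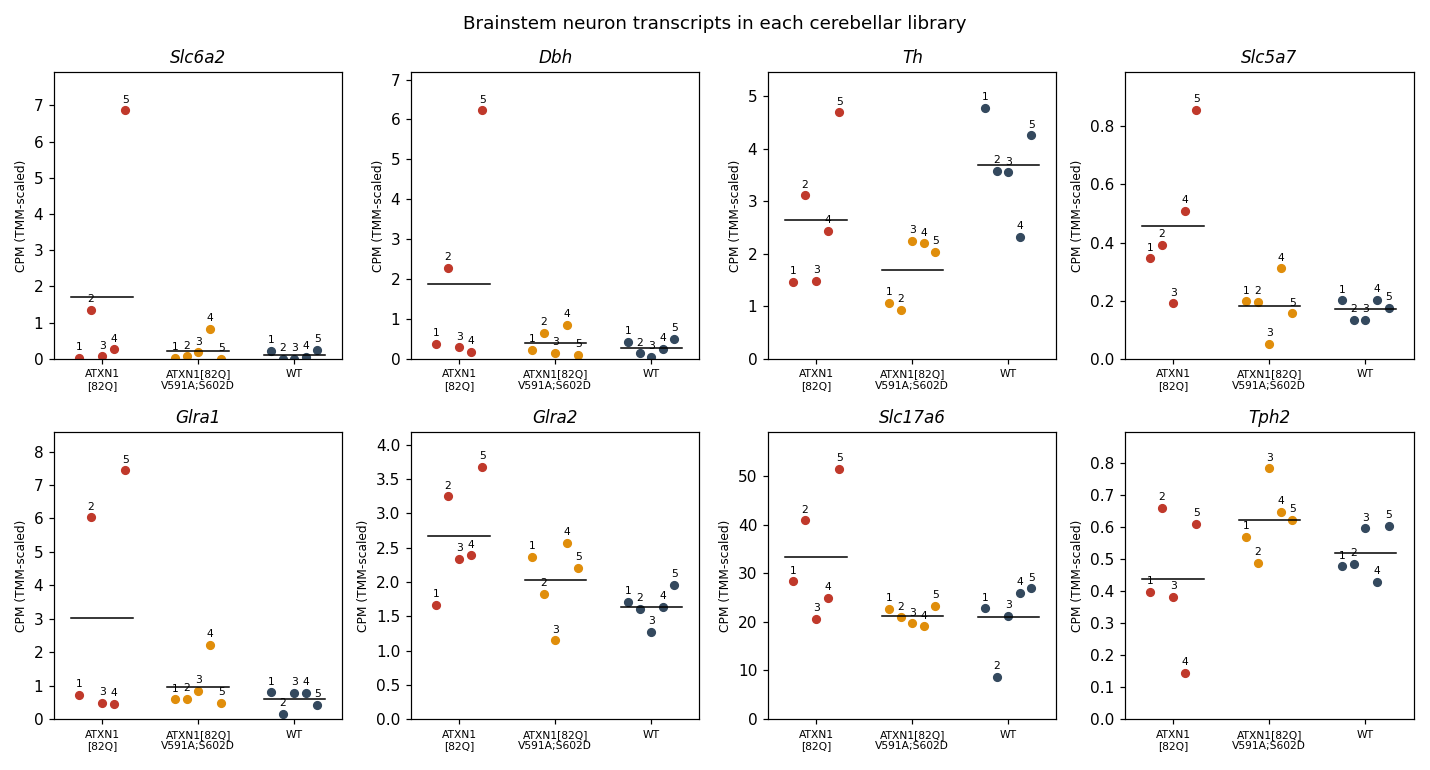
Each panel plots the level of 1 transcript in TMM-scaled CPM (vertical axis, linear, from 0) in each of the 15 libraries, grouped by genotype. Points are libraries with their replicate number above them and black lines are genotype means. Replicate 5 of ATXN1[82Q] stands at 6.86 CPM for Slc6a2, 6.23 CPM for Dbh and 7.44 CPM for Glra1, while Th and Tph2 do not follow this order.

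Levels differed widely between the 8 genes when divided by exon length. The median over the 15 libraries was 4.22 CPM per kb for Slc17a6, 0.98 for Th, 0.623 for Glra2, 0.297 for Glra1, 0.198 for Tph2, 0.107 for Dbh, 0.0351 for Slc5a7 and 0.0116 for Slc6a2. Slc17a6 was above Th in 15 of 15 libraries. The next neighbours in this order kept their places in 12 libraries (Th above Glra2), 12 (Glra2 above Glra1), 12 (Glra1 above Tph2), 10 (Tph2 above Dbh), 13 (Dbh above Slc5a7) and 9 (Slc5a7 above Slc6a2), so of these neighbours only Slc17a6 and Th held their order in all libraries. All 8 genes passed the filter on low counts, although only 5 libraries had at least 10 reads of Slc6a2 and only 5 had at least 10 reads of Slc5a7.

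The noradrenaline transporter Slc6a2 (chromosome 8, 92960079 to 93001667, plus strand, GRCm38) had the widest range relative to its level. It had 1, 55, 3, 11 and 304 reads in ATXN1[82Q] replicates 1 to 5, then 1, 3, 7, 32 and 0 reads with the substituted transgene, and 9, 0, 0, 2 and 10 reads in WT. A single ATXN1[82Q] library, replicate 5, thus held more Slc6a2 reads than the other 14 together, and the 3 genotypes overlapped. Its 304 reads have an exact 95% Poisson interval of 271 to 340, and the 55 reads of replicate 2 one of 41.4 to 71.6, which cover counting error only. In the 3 libraries without a read, a count of 0 allows levels up to 0.0766 CPM in substituted-transgene replicate 5 and up to 0.0788 and 0.0786 CPM in WT replicates 2 and 3. The mean level was 1.71 ± 2.93 CPM in ATXN1[82Q], 0.222 ± 0.347 CPM with the substituted transgene and 0.106 ± 0.124 CPM in WT (SD, n = 5 each).

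Dbh, the enzyme that turns dopamine into noradrenaline (chromosome 2, 27165233 to 27183200, plus strand), followed the same libraries. It had 14, 93, 12, 7 and 276 reads in ATXN1[82Q], then 9, 27, 6, 33 and 4 reads with the substituted transgene, and 17, 5, 2, 10 and 20 reads in WT. Replicates 5 and 2 of ATXN1[82Q] came first, at 6.23 and 2.28 CPM, and replicate 4 of the substituted transgene next, at 0.855 CPM. The remaining ATXN1[82Q] libraries, at 0.169 to 0.372 CPM, lay inside the WT range of 0.0542 to 0.503 CPM.

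Th encodes the enzyme of the first step of this pathway (chromosome 7, 142892752 to 142931128, minus strand), but its order was different. It had 55, 127, 62, 101 and 208 reads in ATXN1[82Q], then 43, 38, 86, 85 and 78 reads with the substituted transgene, and 190, 133, 131, 92 and 169 reads in WT. WT replicate 1 was highest at 4.77 CPM, and ATXN1[82Q] replicate 5 was next at 4.69 CPM. All 5 substituted-transgene libraries, at 0.926 to 2.25 CPM, lay below all 5 WT libraries, at 2.32 to 4.77 CPM. This was the only member whose groups did not overlap in any of the 3 comparisons, and 2.03% of all tested genes were lower with the substituted transgene than in WT without overlap (1.13% higher). Groups without overlap were more common over all genes in ATXN1[82Q] against WT (9.36% higher, 9.79% lower) and in ATXN1[82Q] against the substituted transgene (8.28% higher, 9.61% lower), and held for 0 of the 8 there. Within ATXN1[82Q], replicates 5 and 2 were highest for Th as well, and replicates 1 and 3, at 1.46 and 1.48 CPM, lay below all WT libraries. In ATXN1[82Q] replicate 5 the length-scaled level of Dbh exceeded that of Th, 2.31 against 1.98 CPM per kb, and in the other 14 libraries Th was above Dbh. Mean Th was 2.64 ± 1.34 CPM in ATXN1[82Q], 1.69 ± 0.644 CPM with the substituted transgene and 3.69 ± 0.923 CPM in WT (SD, n = 5 each). The summed Purkinje cell markers were also below WT in both transgenic genotypes, and the part of these cells in the Th values was not tested.

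Upstream sequences were read for the 2 enzyme genes whose levels did not follow the noradrenergic pair and for the choline transporter. They show how far their promoter proximal bases differ. Of the 8 genes, 6 had a promoter entry from RefSeq (GRCm38.p6). The windows span the 220 bases from 250 to 31 before the annotated start, on the strand of the gene, and capitals mark a match to TGACGTCA, the palindromic cyclic AMP response element, or to TATAAA, the TATA box core, searched on both strands. The windows are chr7:142900026-142900245 (minus strand) for Th, chr10:115185053-115185272 (minus strand) for Tph2 and chr17:54299065-54299284 (minus strand) for Slc5a7. The RefSeq start and the window of Th lie inside its gene span given above, which is from GENCODE and begins further upstream.
Th: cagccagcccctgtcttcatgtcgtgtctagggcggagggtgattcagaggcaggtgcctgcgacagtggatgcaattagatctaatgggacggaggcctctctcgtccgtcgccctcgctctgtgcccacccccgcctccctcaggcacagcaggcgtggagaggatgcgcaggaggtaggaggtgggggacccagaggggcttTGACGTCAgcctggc
Tph2: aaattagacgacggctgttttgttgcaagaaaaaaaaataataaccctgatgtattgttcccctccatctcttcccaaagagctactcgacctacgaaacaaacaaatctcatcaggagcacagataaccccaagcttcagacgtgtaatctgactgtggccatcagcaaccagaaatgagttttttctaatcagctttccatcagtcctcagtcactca
Slc5a7: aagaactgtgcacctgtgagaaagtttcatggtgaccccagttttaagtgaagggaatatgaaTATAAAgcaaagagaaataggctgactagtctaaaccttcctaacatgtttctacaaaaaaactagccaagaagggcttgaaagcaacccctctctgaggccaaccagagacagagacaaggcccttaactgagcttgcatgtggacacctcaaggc
The match in Th starts 45 bases before the start, and TGACGTCA was found in 1.14% of 32851 promoter windows of this length. The match in Slc5a7 starts 187 bases before the start, and TATAAA was found in 9.95% of windows. Tph2 had neither motif, and among the other members with an entry TATAAA was found in Glra2, and neither motif in Dbh or Slc17a6. A match is a description of the letters and not of a bound site.

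Slc5a7, the choline transporter of cholinergic nerve endings (chromosome 17, 54273590 to 54299034, minus strand), was low throughout but less tied to the same pair of libraries. It had 13, 16, 8, 21 and 38 reads in ATXN1[82Q], then 8, 8, 2, 12 and 6 reads with the substituted transgene, and 8, 5, 5, 8 and 7 reads in WT. ATXN1[82Q] replicate 5 was again highest, at 0.857 CPM, but replicate 4 came second, at 0.508 CPM, ahead of replicate 2 at 0.391 CPM. Of the ATXN1[82Q] libraries, 4 of 5 lay above all WT libraries, as did 1 of 5 with the substituted transgene. The mean was 0.459 ± 0.25 CPM in ATXN1[82Q], 0.182 ± 0.093 CPM with the substituted transgene and 0.17 ± 0.0334 CPM in WT (SD, n = 5 each).

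The glycine receptor subunits differed from each other. Glra1, the adult subunit of brainstem and spinal cord (chromosome 11, 55514238 to 55608198, minus strand), had 27, 247, 20, 19 and 330 reads in ATXN1[82Q]. It had 24, 25, 32, 86 and 19 reads with the substituted transgene and 32, 6, 29, 31 and 17 reads in WT. Replicates 5 and 2 of ATXN1[82Q], at 7.44 and 6.04 CPM, stood well above substituted-transgene replicate 4 at 2.23 CPM, and the other 12 libraries were at 0.161 to 0.836 CPM. Exons of Glra1 overlap a predicted gene, Gm12236, over 5.84% of their length, and Gm12236 is not listed in the count tables.

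Glra2, the subunit that predominates before birth (chromosome X, 165129017 to 165327393, minus strand), varied far less. It had 63, 133, 98, 99 and 163 reads in ATXN1[82Q], then 96, 75, 44, 99 and 85 reads with the substituted transgene, and 68, 60, 47, 65 and 78 reads in WT. Of the ATXN1[82Q] libraries 4 of 5 were above all WT libraries, and of the substituted-transgene libraries 3 of 5. Per kb of exon, Glra2 was above Glra1 in 12 of 15 libraries. The order was turned in ATXN1[82Q] replicate 5 (Glra1 at 3.08 and Glra2 at 1.17 CPM per kb), in ATXN1[82Q] replicate 2 (2.5 and 1.03) and in substituted-transgene replicate 4 (0.923 and 0.815).

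Slc17a6 (chromosome 7, 51622006 to 51671119, plus strand) was the most abundant of the 8. It had 1065, 1673, 861, 1029 and 2283 reads in ATXN1[82Q], then 916, 859, 754, 738 and 898 reads with the substituted transgene, and 908, 321, 782, 1028 and 1068 reads in WT. ATXN1[82Q] replicates 5 and 2 were highest, at 51.5 and 40.9 CPM, and WT replicate 2 lowest, at 8.62 CPM, which left the other 12 libraries between 19.1 and 28.3 CPM. The mean was 33.2 ± 12.7 CPM in ATXN1[82Q], 21.1 ± 1.82 CPM with the substituted transgene and 21.1 ± 7.33 CPM in WT (SD, n = 5 each). The WT library with the lowest Slc17a6 was also the lowest of the 15 for Spp1 (229 reads) and Meis2 (78 reads), genes of the deep cerebellar nuclei list, and for the summed oligodendrocyte markers (4939 CPM). For Lhx9 and Lhx2 of that list it was the highest WT library (2.36 and 0.376 CPM).

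Tph2, the serotonin-synthesising enzyme of the raphe (chromosome 10, 115078641 to 115185022, minus strand), did not single out the same libraries. It had 15, 27, 16, 6 and 27 reads in ATXN1[82Q], then 23, 20, 30, 25 and 24 reads with the substituted transgene, and 19, 18, 22, 17 and 24 reads in WT. The highest library was substituted-transgene replicate 3, at 0.783 CPM, and the lowest ATXN1[82Q] replicate 4, at 0.145 CPM. Next to the highest were ATXN1[82Q] replicate 2 and substituted-transgene replicate 4, at 0.66 and 0.648 CPM. Within ATXN1[82Q], replicates 2 and 5 were highest for Tph2 as well. All 3 genotypes overlapped, with means of 0.439 ± 0.206 CPM in ATXN1[82Q], 0.622 ± 0.109 CPM with the substituted transgene and 0.518 ± 0.0781 CPM in WT (SD, n = 5 each).

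A fit over all genes with edgeR gives these differences as log2 fold changes, shown here as a description. Against WT, ATXN1[82Q] differed by 3.97 ± 1.26 for Slc6a2, 2.75 ± 0.877 for Dbh, 2.35 ± 0.748 for Glra1 and 1.42 ± 0.406 for Slc5a7 (log2 fold change ± SE). The changes were smaller for Glra2 (0.70 ± 0.219) and Slc17a6 (0.66 ± 0.253), and negative for Th (-0.48 ± 0.308) and Tph2 (-0.23 ± 0.293). Their median was 1.06, against 0.01 for all 15843 genes tested. At an adjusted p under 0.05, 5 of the 8 were called higher in ATXN1[82Q] than in WT (Slc6a2, Dbh, Slc5a7, Glra1 and Glra2) and 0 lower, where 16.6% of all tested genes were called higher, and nothing is read from this count because these values chose the genes. Without ATXN1[82Q] replicate 5 none of the 8 was called, where 14% of all tested genes were called higher. The log2 fold change of Slc6a2 was then 1.96, that of Dbh 1.48 and that of Glra1 1.70. Leaving out WT replicate 2 or 3 left 2 calls each, and leaving out WT replicate 4 or ATXN1[82Q] replicate 2 left 3. In these fits 12.7% to 15.3% of all tested genes were called higher.

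Without both ATXN1[82Q] replicates 2 and 5 the Slc6a2, Dbh and Glra1 differences were near 0. The log2 fold change of ATXN1[82Q] over WT was then 0.19 ± 1.27 for Slc6a2, -0.02 ± 0.692 for Dbh and -0.11 ± 0.533 for Glra1. It was 1.01 ± 0.431 for Slc5a7, 0.38 ± 0.223 for Glra2 and 0.22 ± 0.236 for Slc17a6, -1.04 ± 0.304 for Th and -0.75 ± 0.307 for Tph2. Of the 8, 0 were then called higher and 1 lower, Th, where 11.8% of all tested genes were called higher and 3883 of 15992 in either direction. Of the 5 transcripts called with all libraries, Slc5a7 had the largest value left.

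The substituted transgene against WT gave smaller values. The log2 fold change was 1.00 ± 1.57 for Slc6a2, 0.53 ± 0.995 for Dbh and 0.68 ± 0.795 for Glra1, each within its standard error, and 0.10 ± 0.463 for Slc5a7, 0.30 ± 0.223 for Glra2, 0.00 ± 0.256 for Slc17a6 and 0.26 ± 0.284 for Tph2. Th stood at -1.13 ± 0.32. By edgeR 0 of the 8 were called higher, where 0.208% of all tested genes were, and 0 lower, where 1.2% were (1.41% in either direction), and DESeq2 called Th lower. Without substituted-transgene replicate 4 the values were -0.61 for Slc6a2, 0.06 for Dbh and 0.09 for Glra1.

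ATXN1[82Q] against the substituted transgene gave a log2 fold change of 2.96 ± 1.13 for Slc6a2, 2.22 ± 0.833 for Dbh and 1.68 ± 0.709 for Glra1. It was 1.32 ± 0.4 for Slc5a7, 0.65 ± 0.322 for Th, 0.65 ± 0.253 for Slc17a6, 0.40 ± 0.216 for Glra2 and -0.49 ± 0.287 for Tph2. Of the 8, 1 gene, Slc5a7, was called higher, where 13.5% of all tested genes were. This call was lost without ATXN1[82Q] replicate 5 and without substituted-transgene replicate 3, while 5 of the 8 were called without ATXN1[82Q] replicate 3, 4 without its replicate 4 or without substituted-transgene replicate 4, 3 without ATXN1[82Q] replicate 1 and 2 without WT replicate 2. In these fits 10.2% to 13.8% of all tested genes were called higher. Nothing is read from these counts, because these values chose the genes. Slc5a7 had at least 10 reads in only 5 libraries and at most 8 in any WT library. Without ATXN1[82Q] replicates 2 and 5 the values were -0.82 ± 1.15 for Slc6a2, -0.55 ± 0.672 for Dbh and -0.79 ± 0.518 for Glra1. They were -1.01 ± 0.302 for Tph2, 0.91 ± 0.426 for Slc5a7, 0.21 ± 0.236 for Slc17a6, 0.09 ± 0.307 for Th and 0.075 ± 0.222 for Glra2. Of the 8, 0 were then called higher and 1 lower, Tph2, where 8.63% of all tested genes were called higher and 3215 of 15992 in either direction. The 3 comparisons share libraries, so their values are not independent.

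**Figure D2:**
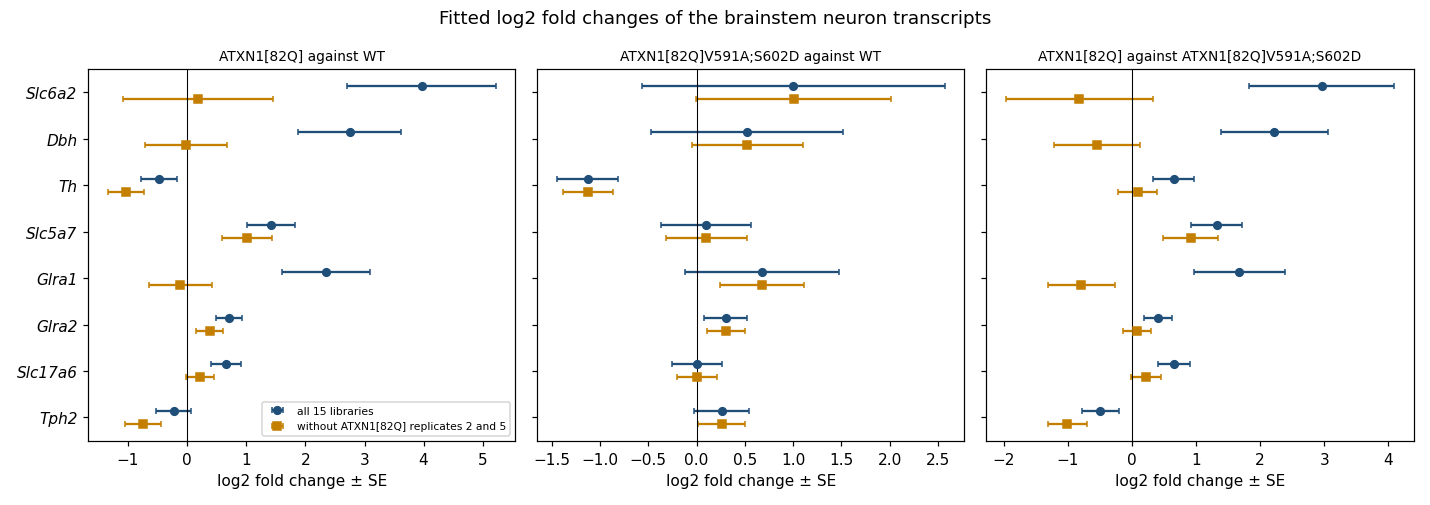
The fitted log2 fold change of each transcript (horizontal axis) is drawn with its standard error for 3 comparisons, 1 per panel. Circles use all 15 libraries and squares leave out ATXN1[82Q] replicates 2 and 5. In ATXN1[82Q] against WT the circles of Slc6a2, Dbh and Glra1 lie at 3.97, 2.75 and 2.35 and the squares at 0.19, -0.02 and -0.11.

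Other genes of the same neurons were taken from 5 lists (noradrenergic and monoamine, serotonergic, cholinergic and motor, glycinergic, and hindbrain Hox), 43 genes in all, of which 16 had enough reads for the test. In ATXN1[82Q] against WT, 5 of the 16 were called higher by edgeR (Ache, Prph, Calca, Slc6a9 and Gad2) and 2 lower (Glrb and Gphn), where 16.6% and 14.9% of all tested genes were. The median log2 fold change of the 16 was 0.24, against 0.01 for all tested genes. Prph passed the filter on low counts only through transgenic libraries, with under 10 reads in each WT library. The count called higher was 8 of 18 without ATXN1[82Q] replicate 1 or without WT replicate 2, which let Hoxa2 and Hoxb3 pass the filter on low counts. Of all tested genes 15.8% and 14.1% were called higher in these fits. Hoxa2 and Hoxb3 also had under 10 reads in each WT library and passed only through transgenic libraries, so nothing is read from this larger count. In ATXN1[82Q] against the substituted transgene, 5 were called higher (Slc18a2, Ddc, Ache, Calca and Slc6a9) and the same 2 lower, where 13.5% and 14.6% of all tested genes were. In the substituted transgene against WT 0 of 16 were called by edgeR, where 2 had higher and 1 had lower values with a p under 0.05 before adjustment, and DESeq2 called 1, Gad1, lower.

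The Hox genes, whose expression marks the hindbrain and spinal cord behind the cerebellum, were read most in the same libraries. Summed over 15 Hox genes there were 14, 128, 17, 39 and 448 reads in ATXN1[82Q] replicates 1 to 5, then 21, 20, 17, 77 and 10 with the substituted transgene, and 12, 10, 12, 13 and 26 in WT. Replicate 5 of ATXN1[82Q] held 51.9% of these 864 reads and replicate 2 held 14.8%, and replicate 5 was the highest library for each of the 14 Hox genes with any read. Hoxb3, the most abundant of them, had 6, 21, 5, 16 and 122 reads in ATXN1[82Q], then 10, 8, 5, 23 and 2 with the substituted transgene, and 5, 0, 4, 4 and 5 in WT. Hoxb8 had 0 reads in all 15 libraries. None of the 15 Hox genes had enough reads to enter the test.

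Phox2a, a transcription factor that specifies noradrenergic neurons, was read most in the same ATXN1[82Q] library. Phox2a had 0, 2, 0, 1 and 14 reads in ATXN1[82Q], then 0, 1, 0, 1 and 0 with the substituted transgene, and 0 in all 5 WT libraries.

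**Figure D3:**
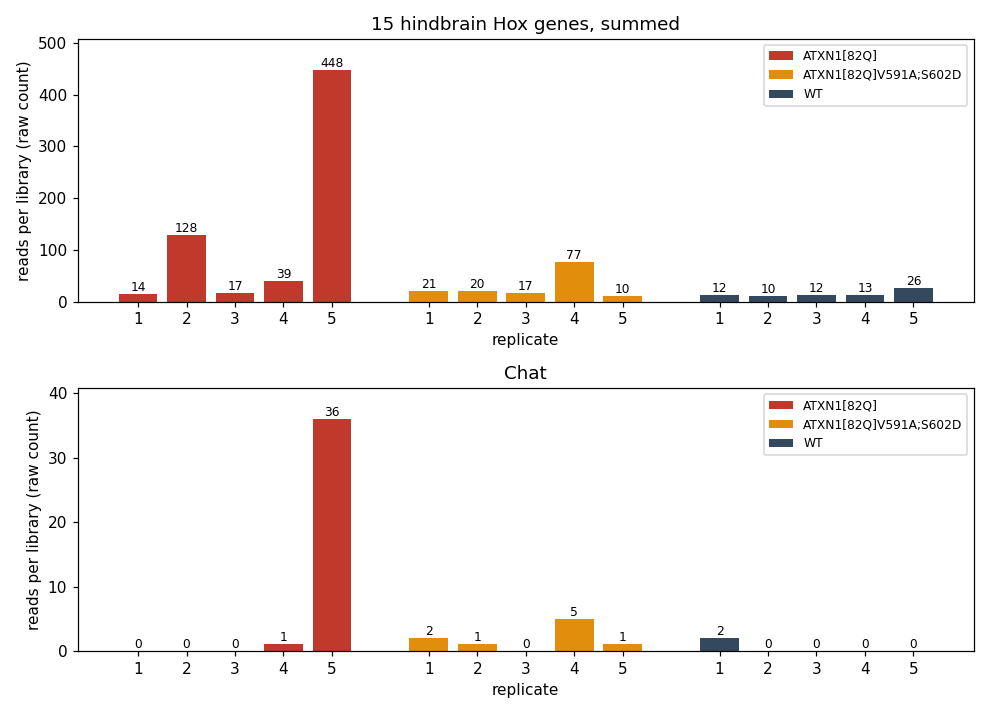
Bars show raw reads per library (vertical axes, linear, from 0) for the sum of 15 Hox genes (upper panel) and for Chat, the acetylcholine-synthesising enzyme (lower panel), by genotype and replicate. ATXN1[82Q] replicates 5 and 2 hold 448 and 128 Hox reads and 36 and 0 Chat reads, and substituted-transgene replicate 4 holds 77 and 5.

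The monoamine genes that the cerebellum also expresses showed small differences. Slc18a2, the vesicular monoamine transporter, had 235, 347, 358, 311 and 526 reads in ATXN1[82Q], then 245, 258, 218, 236 and 239 with the substituted transgene, and 255, 267, 196, 292 and 288 in WT. It was higher in ATXN1[82Q] than with the substituted transgene (log2 fold change 0.49 ± 0.133 SE, edgeR adjusted p = 0.0114), and against WT it did not pass the threshold (0.35, adjusted p = 0.0529), although it did without ATXN1[82Q] replicate 1 or 4 (0.0117 and 0.0483) and with DESeq2 (0.0361). The call against the substituted transgene was lost without ATXN1[82Q] replicates 2 and 5 (0.29, adjusted p = 0.088) and with only libraries under 100 CPM of Ttr (0.28, adjusted p = 0.373). Ddc, which makes dopamine and serotonin from their precursors, was higher in ATXN1[82Q] than with the substituted transgene as well (0.49 ± 0.165, adjusted p = 0.0365). That call was lost without ATXN1[82Q] replicate 3, 4 or 5 (adjusted p of 0.0744, 0.0569 and 0.114) and without substituted-transgene replicate 2, 3 or 5 (0.0908, 0.0813 and 0.0714).

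Slc6a4 and Fev, genes of the serotonergic list, were near 0 in every library, and Tph2 was low in every library. The serotonin transporter Slc6a4 had 7, 3, 3, 3 and 5 reads in ATXN1[82Q], then 2, 0, 2, 7 and 8 with the substituted transgene, and 3, 2, 2, 1 and 3 in WT. Fev, the transcription factor of serotonergic neurons, had at most 3 reads in any library. Lmx1b of the same list was highest in ATXN1[82Q] replicate 5, with 15 reads, against 4 in replicate 2 and 0 to 8 in WT. Gata3 was highest in ATXN1[82Q] replicates 5 and 2, with 10 and 9 reads. It had 8 reads in substituted-transgene replicate 4 and 8 in WT replicate 2. Of the 5 genes of this list only Gata2 was tested, and it did not pass in any comparison.

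Cholinergic and motor genes were again found in ATXN1[82Q] replicate 5. Chat, the acetylcholine-synthesising enzyme, had 0, 0, 0, 1 and 36 reads in ATXN1[82Q], then 2, 1, 0, 5 and 1 with the substituted transgene, and 2, 0, 0, 0 and 0 in WT. The vesicular transporter Slc18a3 had 0, 3, 1, 0 and 8 reads in ATXN1[82Q], then 0, 2, 0, 1 and 0 with the substituted transgene, and 0 in all 5 WT libraries. ATXN1[82Q] replicate 2, which had 128 Hox reads, had 0 Chat reads.

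Of the 7 genes of the cholinergic and motor list 3 were tested, and all 3 were higher in ATXN1[82Q] than in WT by edgeR, where 16.6% of all tested genes were. Prph, an intermediate filament of motor and peripheral neurons, had 9, 42, 5, 17 and 104 reads in ATXN1[82Q], then 3, 11, 2, 25 and 4 with the substituted transgene, and 8, 3, 2, 5 and 5 in WT (log2 fold change over WT 2.79 ± 0.783 SE, adjusted p = 0.0118). It had under 10 reads in every WT library and passed the filter on low counts only through transgenic libraries. The rest of the list had too few reads to be tested, so nothing is read from the count of 3. Calca, which encodes the motor neuron peptide CGRP, had 13, 40, 27, 28 and 139 reads in ATXN1[82Q], then 17, 14, 9, 15 and 13 with the substituted transgene, and 10, 8, 10, 12 and 31 in WT (1.67 ± 0.507, adjusted p = 0.0187). Without ATXN1[82Q] replicate 5 neither passed against WT (adjusted p of 0.0575 for Prph and 0.0942 for Calca), and the call of Calca against the substituted transgene (1.75 ± 0.51, adjusted p = 0.0172) was lost too (0.0772). Ache, which degrades acetylcholine and is widely expressed, averaged 91.8 CPM in ATXN1[82Q] and 75.7 CPM in WT (0.28 ± 0.0511, adjusted p = 0.000555).

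Among genes of glycinergic transmission 7 of 9 were tested, and their directions were mixed in ATXN1[82Q] against WT. The glial glycine transporter Slc6a9 averaged 152 CPM in ATXN1[82Q] and 121 CPM in WT and was higher (log2 fold change 0.33 ± 0.049 SE, edgeR adjusted p = 7.26e-05). Glrb, the receptor subunit that anchors glycine receptors at synapses, averaged 247 CPM in ATXN1[82Q] and 290 CPM in WT and was lower (-0.23 ± 0.0406, adjusted p = 0.000351), and the scaffold Gphn was lower too (-0.18, adjusted p = 0.000712). The call of Slc6a9 higher and those of Glrb and Gphn lower held against WT in every alternative run. Slc6a5, the transporter of glycinergic neurons, had 473, 787, 409, 375 and 883 reads in ATXN1[82Q], then 631, 524, 469, 564 and 500 with the substituted transgene, and 408, 418, 442, 458 and 407 in WT. It did not pass against WT (0.36, adjusted p = 0.141), though it did without ATXN1[82Q] replicate 4 (0.48, adjusted p = 0.0367). Its difference from the substituted transgene was 0.05 with all libraries (adjusted p = 0.86) and -0.39 without ATXN1[82Q] replicates 2 and 5 (adjusted p = 0.0201).

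Markers of tissue that borders the cerebellum also varied between libraries. Ttr, an abundant transcript of the choroid plexus in the fourth ventricle, was at 26, 3248, 7.77, 3237 and 4869 CPM in ATXN1[82Q] replicates 1 to 5, then 14.3, 1853, 2253, 3545 and 35.8 CPM with the substituted transgene, and 1090, 5.48, 45.4, 4.26 and 3793 CPM in WT. Both ATXN1[82Q] libraries with the highest brainstem transcripts had high Ttr. So did ATXN1[82Q] replicate 4 and WT replicate 5, whose mean brainstem level was only 0.14 and 0.42 above the WT mean (log2 difference averaged over the 8 transcripts), against 2.42 and 1.66 in ATXN1[82Q] replicates 5 and 2 and 0.95 in substituted-transgene replicate 4. Substituted-transgene replicates 2 and 3 also had high Ttr, with means of 0.02 and -0.05. In the 7 libraries with Ttr under 100 CPM that mean ran from -0.59 to 0.04. By edgeR 0 of 10 choroid plexus genes were called in any of the 3 comparisons, with 0 at an unadjusted p under 0.05 and 0 by DESeq2. Of all tested genes 31.5% were called in ATXN1[82Q] against WT, 1.41% in the substituted transgene against WT and 28.1% between the transgenes. The median log2 fold change of the 10 was 1.01, 0.505 and 0.504 in this order. Ttr differed by 1.205 ± 1.66 (SE) in ATXN1[82Q] against WT, so the absence of calls does not show equal levels. The part of choroid plexus tissue in the brainstem levels was not tested.

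**Figure D4:**
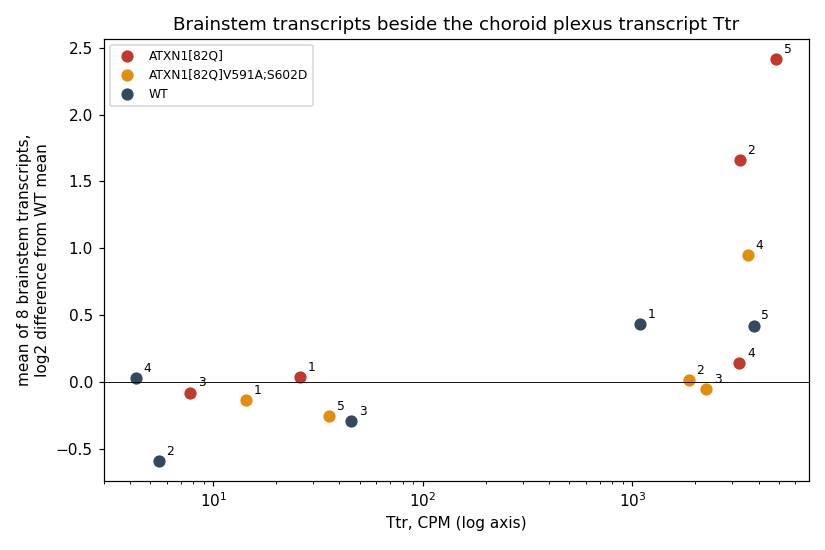
Each point is a library, with its replicate number, placed by its Ttr level in CPM (horizontal axis, logarithmic) and by the mean log2 difference of the 8 brainstem transcripts from the WT mean (vertical axis). ATXN1[82Q] replicates 5 and 2 lie at 2.42 and 1.66, while ATXN1[82Q] replicate 4, with 3237 CPM of Ttr, lies at 0.14.

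Oligodendrocytes, which are dense in white matter, moved with the same pair to a smaller degree. Their 10 markers summed to 7556, 8239, 7218, 7287 and 9140 CPM in ATXN1[82Q], then 6130, 6264, 6199, 6583 and 5919 CPM with the substituted transgene, and 7298, 4939, 5747, 6742 and 7185 CPM in WT. By edgeR 6 of these 10 were higher in ATXN1[82Q] than in WT, where 16.6% of all tested genes were, and 9 higher than with the substituted transgene, where 13.5% were. Without ATXN1[82Q] replicates 2 and 5, Mbp and Mag lost the call against WT (adjusted p of 0.0949 and 0.153), and Mbp, Mag, Opalin and Aspa lost the call against the substituted transgene (0.0962, 0.0559, 0.052 and 0.0774). Cldn11, another of the markers, kept its call against WT and against the substituted transgene in every alternative run. Single libraries also decided calls of Mag against WT, lost without ATXN1[82Q] replicate 5 (0.0685) or WT replicate 2 or 3 (0.0528 and 0.0647), and of Opalin against the substituted transgene, lost without ATXN1[82Q] replicate 5 (0.0712) or substituted-transgene replicate 5 (0.0606). The part of oligodendrocytes in the brainstem levels was not tested. Of 6 genes of the deep cerebellar nuclei, which lie inside the cerebellum and contain Slc17a6 neurons, Spp1 and Meis2 were higher in ATXN1[82Q] than in WT. Of all tested genes 16.6% were. Spp1 had 1121, 2013, 967, 939 and 1898 reads in ATXN1[82Q], then 646, 746, 574, 582 and 504 with the substituted transgene, and 690, 229, 521, 625 and 883 in WT (log2 fold change over WT 1.15 ± 0.258 SE, adjusted p = 0.00273). Meis2 had 213, 581, 203, 291 and 772 reads in ATXN1[82Q], then 133, 156, 154, 247 and 206 with the substituted transgene, and 192, 78, 142, 168 and 206 in WT (1.28 ± 0.327, adjusted p = 0.00643, and 0.53 with 0.137 without ATXN1[82Q] replicates 2 and 5). Both genes, like 5 of the 8 brainstem transcripts, had ATXN1[82Q] replicates 2 and 5 as the 2 highest libraries. So did Nefh of this list, at 200 and 224 CPM, while its other genes did not. Lhx9 was highest in ATXN1[82Q] replicate 4 (3.7 CPM) and substituted-transgene replicate 5 (3.64 CPM). Lhx2 was highest in the same libraries, at 0.508 and 0.649 CPM. Tbr1 was highest in ATXN1[82Q] replicate 5 (0.97 CPM), with 0.44 CPM in replicate 2.

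Genes of the midbrain list were at very different levels. The dopamine transporter Slc6a3 had at most 4 reads in any library and the transcription factor Pitx3 at most 1, while Nr4a2, a transcription factor of dopamine neurons and of other cells, was at 16.7 to 39.1 CPM in ATXN1[82Q], 10.1 to 34.1 CPM with the substituted transgene and 12.4 to 44.6 CPM in WT. Of the midbrain list 3 of 8 were tested, with Aldh1a1 called higher in ATXN1[82Q] than in WT and Barhl2 lower. In that comparison 16.6% of all tested genes were called higher and 14.9% lower, so nothing is read from so few genes. Of the forebrain list 3 of 5 were tested, with Neurod6 called higher in ATXN1[82Q] than in WT, beside the same shares of all tested genes. ATXN1[82Q] replicates 2 and 5 were the 2 lowest of 15 libraries for Barhl2, and were not the 2 highest for Aldh1a1 or Neurod6. Pou4f1, also of the midbrain list and not tested, was highest in ATXN1[82Q] replicates 5 and 2 (19 and 10 reads). Substituted-transgene replicate 4 came next, with 8 reads, and WT libraries had 0 to 6.

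The genes most like the 8 transcripts were found by the distance of their log2 levels from the mean profile of the 8 over all 15 libraries, and are given as a description. The 10 nearest among 15769 genes included Cbln4, Rasgrf2, Arhgdig, Rprm, Agmat, Htr7, Zdhhc22, Sncg and Slc6a11, and lay at a root mean square distance of 0.38 to 0.44, where the median gene was at 0.85 and the 8 transcripts themselves at 0.50 to 1.34. Cbln4, a secreted synaptic protein of the cerebellin family, had 32, 151, 31, 46 and 123 reads in ATXN1[82Q], then 25, 27, 23, 50 and 28 with the substituted transgene, and 25, 12, 24, 29 and 36 in WT. Slc6a11, the GABA transporter GAT3 of astrocytes, had 3945, 5556, 3988, 4241 and 8699 reads in ATXN1[82Q], then 3024, 3402, 3066, 3611 and 3125 with the substituted transgene, and 3403, 1697, 2691, 3211 and 3708 in WT. ATXN1[82Q] replicates 2 and 5 were the 2 highest libraries for each of those named. The mean profile by which they were chosen is highest in the same 2 libraries, so nothing is read from this.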

How the data were processed

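RNA from cerebella of FVB mice was sequenced in 15 libraries, 5 per genotype, each from 10 ng of total RNA with 400 bp inserts, per the labels' protocols. The submitters' processing notes name STAR 2.5.3a, HTSeq, DESeq2 and the build mm10. The deposited values are unnormalised whole-number read counts per gene, made by the authors. Whether reads were counted by strand, in which mode and with which annotation release is not given in the sources used here. In each library 16.8% to 18.2% of reads lay in no gene, 1.18% to 1.25% were ambiguous and 12.8% to 14.6% aligned to several places, and all were kept out of library sizes.

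Positions and exon lengths are from GENCODE M21 (GRCm38), which holds 23376 of the 24421 symbols, and promoters are from RefSeq (GRCm38.p6). The test was the quasi-likelihood F-test of edgeR 4.0.16 under R 4.3.3. A single fit held every library, with 1 mean per genotype, TMM factors from 0.968 to 1.04 and a minimum count of 10 in filterByExpr. Adjusted p-values are Benjamini-Hochberg over 15843 genes, called under 0.05. The common dispersion corresponded to a coefficient of variation of 0.102, and the prior count for log2 CPM was 2. The steps were tested on simulated data with known changes. Poisson intervals, and the 3 counts allowed by a count of 0, cover counting error only, because amplified reads are not independent molecules. Library pairs within a genotype differed by far more than sampling noise (chi-square per degree of freedom 5.71 to 41.1 in 30 pairs).

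The members and gene lists were chosen with earlier results of these data known, so the members are given without a test. Named beside them were Chat, Slc18a3, Slc6a4, Ddc, Slc6a5 and Ttr, up to 3 called genes of largest fold change per list and comparison, the most abundant gene of each list, and the 10 genes with the smallest root mean square distance from the members' mean profile. Phox2a, Fev, Lmx1b, Gata3, Tbr1, Lhx2, Lhx9, Slc6a3, Pitx3, Nr4a2, Pou4f1, Gm12236, Gad2, Hoxa2 and Hoxb8 were named after their values were seen. A few other genes are not reported here. As alternatives DESeq2 1.42.0 replaced edgeR, RLE replaced TMM, the count filter was dropped, the third genotype was left out of the fit, replicate number was added as a block, single libraries were left out, ATXN1[82Q] libraries 2 and 5 were left out together, libraries were limited to those with Ttr under 100 CPM, and the prior count was set to 0.5. Figures used Python 3.11.15.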

Additional observations from a re-analysis of the deposited data

Results flagged for a closer look

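A single library stood apart within its genotype in 7 of the 39 groups of 5 values examined (8 members and 5 list sums, in 3 genotypes), by the gap to its nearest neighbour as a share of the whole range, above 0.71. The levels of Slc6a2 and Glra1 were known when they were chosen, so these gaps are given as a description and not as a test. For Slc6a2, ATXN1[82Q] replicate 5 was at 6.86 CPM with the next library at 1.35 CPM (share 0.807), and substituted-transgene replicate 4 at 0.829 CPM with the next at 0.183 CPM (0.78). For Glra1, substituted-transgene replicate 4 was at 2.23 CPM with the next at 0.836 CPM (0.803). The summed Hox genes were at 10.1 CPM in ATXN1[82Q] replicate 5 with the next at 3.13 CPM (0.717), at 2 CPM in substituted-transgene replicate 4 with the next at 0.519 CPM (0.85), and at 0.655 CPM in WT replicate 5 with the next at 0.328 CPM (0.847). The summed glycinergic genes, a list led by the widely expressed Gad1, were at 1706 CPM in ATXN1[82Q] replicate 1 with the next at 1644 CPM (0.798).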

How the results depend on the processing

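The count of other brainstem genes called higher in ATXN1[82Q] than in WT was 5 of 16. It was 11 of 41 without a count filter, which added Phox2a, Hoxa2, Hoxb2, Hoxb3 and Hoxd3 among others, and 2 with only libraries under 100 CPM of Ttr (7 libraries). Of all tested genes 12.7% and 9.85% were called higher in these 2 runs. The count ran from 4 to 8 with each library left out in turn, where 12.7% to 18.1% of all tested genes were called higher. The count of 8 includes Hoxa2 and Hoxb3, which passed the filter only through transgenic libraries. In ATXN1[82Q] against the substituted transgene the count was 5, against 3 without ATXN1[82Q] replicates 2 and 5, 1 with only libraries under 100 CPM of Ttr, and 4 to 6 with each library left out in turn. Of all tested genes 8.63%, 3.83% and 10.2% to 14.1% were then called higher. In the substituted transgene against WT the count was 0 in all alternatives, where at most 0.701% of all tested genes were called higher. Slc6a5 turned to -0.39 in ATXN1[82Q] against the substituted transgene without ATXN1[82Q] replicates 2 and 5. Beyond the library subsets and the filter, the cause was not tested. Replicate numbers did not pair the libraries, since 4 of 15 same-number pairs correlated above 0.1 (median -0.109). With the replicate number as a block, the counts of other brainstem genes called higher were 7, 0 and 5 in ATXN1[82Q] against WT, the substituted transgene against WT and ATXN1[82Q] against the substituted transgene. Of all tested genes 15.7%, 0.158% and 12.4% were. In ATXN1[82Q] against WT 2 of the 8 members were then called higher, and Slc18a2 passed there too (edgeR adjusted p = 0.0473). With only libraries under 100 CPM of Ttr, Slc6a2 and Slc5a7 had too few reads to be fitted. Over all alternatives, including those above, member values stayed within 1 standard deviation of the main result in 523 cases and moved beyond it in 17. That standard deviation is of log2 CPM between libraries of a genotype, pooled over the 3 genotypes. For the other named genes 2680 values kept their sign and their side of the threshold, 118 lost a call and 33 gained one. A further 61 changed sign without a call in either fit, and 1, that of Slc6a5, changed sign and was called. At 5 libraries per genotype and these depths, counts of 0 to 3 reads limit Slc6a2, Slc18a3, Chat and Phox2a.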

Other observations

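Further genes of the lists, chosen after their values were seen, differed in the libraries where they were high. Glra4, a further glycine receptor subunit, had 2, 42, 10, 3 and 4 reads in ATXN1[82Q] replicates 1 to 5, then 6, 5, 6, 8 and 5 with the substituted transgene, and 10, 5, 6, 5 and 5 in WT, so that replicate 2 was high and replicate 5 was not. Tfap2d, a transcription factor of the dorsal midbrain, had 1, 0, 0, 9 and 2 reads in ATXN1[82Q], then 0, 2, 0, 0 and 33 with the substituted transgene, and 0, 12, 2, 1 and 0 in WT. Its 3 highest libraries, substituted-transgene replicate 5, WT replicate 2 and ATXN1[82Q] replicate 4, had 10, 10 and 39 summed Hox reads. Isl1, a motor neuron transcription factor, had 0, 7, 1, 0 and 11 reads in ATXN1[82Q], then 0, 0, 0, 4 and 0 with the substituted transgene, and 0 in all 5 WT libraries, with the same 3 highest libraries in the same order as the summed Hox genes.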
